A study of Mus musculus with 6 samples.

Results

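Liver RNA-seq of HFD-fed mice was examined for 8 genes that govern the processing of sterol regulatory element-binding proteins (SREBPs) and lipoprotein uptake: *Insig1*, *Insig2*, *Srebf2*, *Scap*, *Mbtps1*, *Mbtps2*, *Stard4* and *Mylip*. The members were taken by gene symbol. All 8 were found among the 45777 genes listed, and all 8 were among the 17274 genes that had reads in at least 5 of the 6 libraries and were tested. The study compared male C57BL/6 mice of 2 genotypes on the HFD. Littermate controls (LT) carried *Fpn* flox/flox without Cre, and *Fpn*-LKO mice were Alb-Cre; *Fpn* flox/flox, so both groups were homozygous for the floxed allele of *Fpn* (*Slc40a1*), which encodes the iron exporter ferroportin. The floxed allele came from a 129S strain. Cre was driven by the albumin promoter, which is active in hepatocytes, so liver cells without Cre activity retain the gene. Each group had 3 libraries of whole liver, 1 per mouse, and the labels give neither an age nor a duration of feeding. The p-values set the difference between the genotypes against the spread between the libraries of a group, so they cover only these 6 libraries.

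In sterol-rich cells, INSIG proteins hold the SREBP escort SCAP in the endoplasmic reticulum. When sterol is low, SCAP carries the SREBPs in COPII vesicles to the Golgi, where the site-1 protease (MBTPS1) and the site-2 protease (MBTPS2) release the transcription factor domain. SREBP-2, encoded by *Srebf2*, then activates the genes of cholesterol synthesis and lipoprotein uptake, *Insig1*, *Stard4* and its own gene, whereas the ubiquitin ligase MYLIP, a target of the liver X receptors (LXRs), limits the uptake of lipoproteins.

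*Insig1* was the member that differed most between the genotypes. Its level in the *Fpn*-LKO-labelled libraries was 0.59 times that in LT, with a spread of 0.971 CPM (SD, n = 3) around a mean of 82.4 CPM. *Stard4* was also lower and *Mbtps2* higher in all 3 of these libraries, by smaller amounts. The transcripts of *Srebf2*, *Scap*, *Mbtps1*, *Mylip* and *Insig2* overlapped between the groups. The genotypes were compared over all genes with the quasi-likelihood test of edgeR and Benjamini-Hochberg adjustment, called the edgeR fit from here on. No member passed an adjusted p of 0.05 in this fit, in which 0.0232% of all genes passed. *Insig1* passed with edgeR's exactTest, as did 0.365% of all genes, and with DESeq2, as did 0.417%. Without adjustment, 3 of the 8 members had a p under 0.05 in the edgeR fit, against 4.80% of all genes tested. Of these, 2 were lower, against 2.19% of all genes, and 1 was higher, against 2.62%. The median log2 fold change of the members was -0.0069, beside -0.0040 for all genes tested. The members were chosen with earlier results of these data known, so these shares are a description.

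Sequence upstream of each gene is shown for the INSIG pair, for *Srebf2*, which is known to regulate itself, and for *Mbtps2*, the member that was higher. RefSeq gave windows of 250 bases on GRCm38.p6 for 7 of the 8 members, in which 4 short motifs were sought on both strands: the E-box CACGTG, the CCAAT box, the GC box GGGCGG, and ATCACCCC, the start of a classical sterol regulatory element. The last of these was chosen after the sequences had been seen. Only bases outside the RefSeq span of the gene and outside every GENCODE exon are shown, written 5′ to 3′ on the strand of the gene, with matches to the motifs in capitals. The stretches lie at chr5:28071162-28071362 (plus strand) for *Insig1*, chr1:121332663-121332839 (minus strand) for *Insig2*, chr15:82147019-82147180 (plus strand) for *Srebf2* and chrX:157598716-157598965 (minus strand) for *Mbtps2*.
Insig1: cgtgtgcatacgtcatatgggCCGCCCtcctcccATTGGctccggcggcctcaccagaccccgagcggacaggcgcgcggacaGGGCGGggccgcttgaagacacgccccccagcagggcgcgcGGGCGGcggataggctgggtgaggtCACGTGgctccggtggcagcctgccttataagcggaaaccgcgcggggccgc
Insig2: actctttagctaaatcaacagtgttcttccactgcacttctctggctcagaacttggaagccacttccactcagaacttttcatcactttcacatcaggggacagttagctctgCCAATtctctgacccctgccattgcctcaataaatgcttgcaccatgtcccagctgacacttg
Srebf2: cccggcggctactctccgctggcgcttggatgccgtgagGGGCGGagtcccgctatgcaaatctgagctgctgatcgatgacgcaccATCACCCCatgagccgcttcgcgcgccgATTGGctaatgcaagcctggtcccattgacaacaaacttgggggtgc
Mbtps2: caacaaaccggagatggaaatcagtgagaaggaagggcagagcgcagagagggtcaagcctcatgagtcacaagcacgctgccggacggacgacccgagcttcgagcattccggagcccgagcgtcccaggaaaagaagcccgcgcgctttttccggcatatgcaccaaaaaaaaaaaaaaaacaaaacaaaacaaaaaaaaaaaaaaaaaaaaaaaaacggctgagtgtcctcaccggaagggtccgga

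The *Insig1* window held an E-box that begins 101 bases before the start, a CCAAT box at 216 and GC boxes at 229, 167 and 126. E-boxes were found in 6.02% of the 32851 mouse windows of the same length, CCAAT boxes in 33.8% and GC boxes in 32.7%. The *Srebf2* window held ATCACCCC at 163 bases before the start, a motif in 0.654% of all windows, with a CCAAT box at 135 and GC boxes at 211, 79, 52 and 34, of which the last 3 fall in the exon bases not shown. *Insig2* had 3 windows for its alternative starts. The most distal held CCAAT boxes at 136, 46 and 29 bases before the start of its transcript, of which the last 2 lie within the 73 bases that the RefSeq span of *Insig2* covers and that are not shown. It held no GC box, whereas the other windows held 1 GC box each, and no *Insig2* window held an E-box. None of these motifs was in the *Mbtps2* window, which contains a long run of A bases. The fuller form of this element, of 10 bases, present in 0.0731% of all windows, its looser form TCACNCCAC, present in 1.05%, and the LXR repeat, AGGTCA repeated after 4 free bases and present in 0.0152%, were in none of the members' windows. A match describes letters only.

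Total counts were between 43086184 and 47778683 per library. *Slc40a1* was not lower in the *Fpn*-LKO-labelled libraries, with 153.9, 180.3 and 126.3 CPM in LT against 143.5, 143.4 and 175.9 CPM in the *Fpn*-LKO-labelled libraries, so every direction below rests on the labels. The 8 hepatocyte markers summed to between 64312 and 79964 CPM in LT against between 67407 and 75197 CPM in the *Fpn*-LKO-labelled libraries. The sums for 9 other sets of markers (macrophages, endothelial, stellate, bile duct and blood cells, lymphocytes, neutrophils, pancreas and adipocytes) also overlapped between the groups. *Ly6g* of neutrophils, 5 of 6 pancreas markers and 3 of 4 adipocyte markers had no read. The bile duct markers stood at 84.4 CPM in LT replicate 3 and between 12.8 and 29.9 CPM in the other 5 libraries. In whole liver, fewer cells of a type and less RNA per cell cannot be told apart.

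Levels were compared between genes in TPM, which is scaled to transcript length. *Insig2* was the most abundant member, with a mean of 137.0 TPM over the 6 libraries (range 55.9 to 189.6), followed by *Insig1* at 54.4 TPM (38.8 to 72.4). *Insig2* was above *Insig1* in 5 of 6 libraries and their ranges overlapped. *Mbtps1* followed at 15.4 TPM, and its range lay below that of *Insig1*. *Scap* at 13.8 TPM, *Stard4* at 9.48 and *Mylip* at 7.19 TPM formed a series in which each range overlapped the next. *Srebf2*, the transcription factor itself, was at 2.12 TPM (1.45 to 3.48), below the range of *Mylip*, and *Mbtps2* was at 1.80 TPM (1.16 to 2.85). *Srebf2* was above *Mbtps2* in 4 of 6 libraries, so the order of these 2 genes was not separated by their spread.

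**Figure D1:**
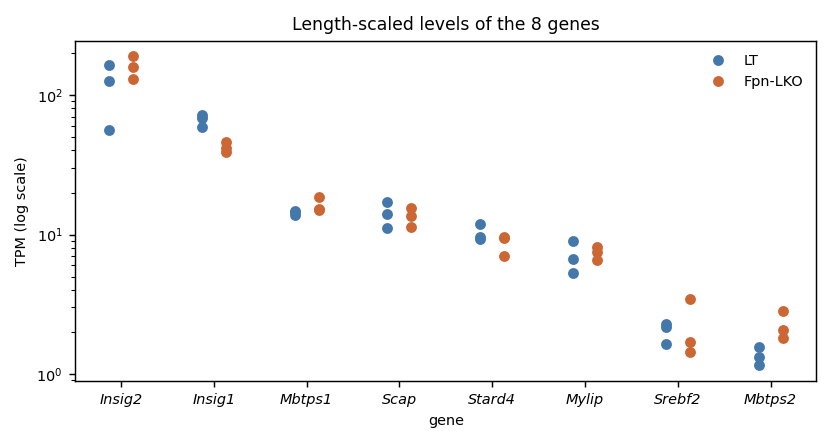
Deposited TPM of the 8 genes on a log axis, with 1 point per library and genes ordered by their mean over the 6 libraries (LT blue, Fpn-LKO-labelled libraries orange). *Insig2* and *Insig1* lie above the other 6 genes, and *Srebf2* and *Mbtps2* lie lowest, between 1.16 and 3.48 TPM.

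*Insig1*, on chromosome 5 of GRCm38 from 28071412 to 28078662, encodes the INSIG isoform whose gene is itself a target of the SREBPs. It had 6796, 5399 and 6548 reads in LT replicates 1 to 3, against 3959, 3796 and 3850 reads in the *Fpn*-LKO-labelled libraries. After scaling these were 136.5, 124.7 and 158.3 CPM in LT against 83.0, 81.3 and 83.0 CPM in the *Fpn*-LKO-labelled libraries. The 3 *Fpn*-LKO-labelled libraries were nearly level with each other and all were below the lowest LT library. Mean CPM was 139.8 ± 17.0 in LT and 82.4 ± 0.971 in the others (SD, n = 3 each), which gave a log2 fold change of -0.76 (SE 0.12, 95% interval -1.04 to -0.48). The adjusted p was 0.382 in the edgeR fit, where the unadjusted p of 0.000276 ranked 12 of 17274. With exactTest the adjusted p was 0.00534, and with DESeq2's Wald test it was 0.000146. The exact two-sided permutation test gave p = 0.1, the smallest that 3 against 3 libraries can give. The log2 fold change stayed between -0.83 and -0.65 in the 14 alternative settings, and the adjusted p ranged from 0.000146 to 0.863.

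*Insig2*, on chromosome 1 from 121304353 to 121332662, encodes the other isoform, which in liver is known to be regulated by insulin rather than by SREBP-2. It had 229.6, 331.6 and 129.7 CPM in LT against 384.6, 231.2 and 318.4 CPM in the *Fpn*-LKO-labelled libraries. LT replicate 3 was the lowest and *Fpn*-LKO replicate 1 the highest, and the groups overlapped. The log2 fold change was 0.44 (SE 0.34, 95% interval -0.35 to 1.22; adjusted p = 0.983 in the edgeR fit). The highest LT library was 2.56 times the lowest, the widest spread of any member within a group. Without LT replicate 2 the log2 fold change was 0.80 and the unadjusted p from edgeR was 0.0421, and without LT replicate 3 the log2 fold change was 0.15. As a ratio of TPM within each library, *Insig1* over *Insig2* was 0.578, 0.360 and 1.23 in LT and 0.205, 0.355 and 0.262 in the *Fpn*-LKO-labelled libraries. The ratios of the groups did not overlap, although LT replicate 2 and *Fpn*-LKO replicate 2 nearly met. *Insig1* over *Scap* was 5.14, 3.42 and 6.11 in LT and 2.87, 2.96 and 3.62 in the *Fpn*-LKO-labelled libraries, which overlapped. *Insig2* over *Scap* overlapped as well.

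**Figure D2:**
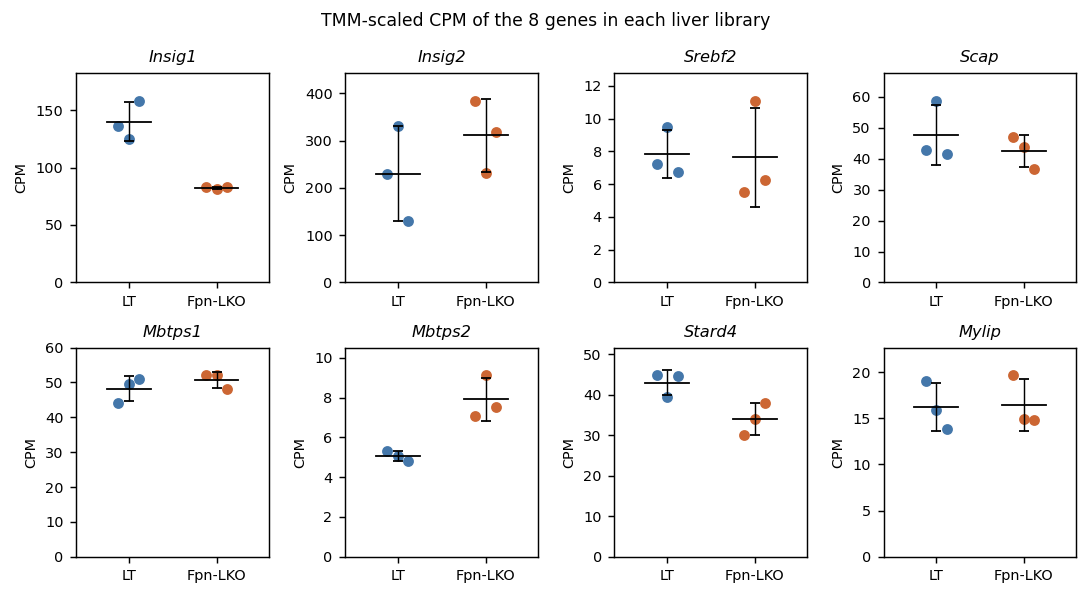
CPM of each gene by genotype, each panel on its own linear axis from 0, with 1 point per library, the mean as a long bar and the SD as whiskers (n = 3 each). In *Insig1*, *Stard4* and *Mbtps2* the points of the Fpn-LKO-labelled libraries are all on one side of the LT points, and in the other 5 genes they overlap.

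*Srebf2*, on chromosome 15 from 82147269 to 82205379, had 7.25, 9.47 and 6.72 CPM in LT against 5.51, 11.1 and 6.27 CPM in the *Fpn*-LKO-labelled libraries. *Fpn*-LKO replicate 2 was the highest of the 6 libraries and replicate 1 the lowest. The log2 fold change was -0.035 (SE 0.29, adjusted p = 0.995 in the edgeR fit), and its 95% interval of -0.71 to 0.64 leaves room for a change in either direction. Its sign changed with the libraries kept, from -0.41 without *Fpn*-LKO replicate 2 to 0.15 without *Fpn*-LKO replicate 1. *Srebf1*, which encodes the SREBP known for fatty acid synthesis, had 50.6, 74.3 and 54.6 CPM in LT against 52.8, 45.4 and 27.1 CPM in the *Fpn*-LKO-labelled libraries. These groups overlapped as well (log2 fold change -0.52, SE 0.26, adjusted p = 0.982 in the edgeR fit). The ratio of *Srebf2* to *Srebf1* in TPM lay between 0.107 and 0.132 in LT and was 0.0962, 0.220 and 0.208 in the *Fpn*-LKO-labelled libraries, so the groups overlapped. *Mir33*, a microRNA within *Srebf2*, was listed at 0 reads in all 6 libraries. The libraries were not prepared for small RNAs, so this count gives no level of the mature microRNA.

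*Scap*, the escort, lies on chromosome 9 from 110333288 to 110384949 and had 42.7, 58.8 and 41.6 CPM in LT. The *Fpn*-LKO-labelled libraries had 46.9, 43.8 and 36.8 CPM, within and just below the LT range. The log2 fold change was -0.17 (SE 0.17, 95% interval -0.56 to 0.22; adjusted p = 0.991 in the edgeR fit), and it was 0.02 without LT replicate 2, the highest library. Of the exon bases of *Scap*, 985 are shared with an antisense transcript, 5830462I19Rik, and whether the counting used strand is not given in the sources used here.

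The proteases followed. *Mbtps1*, the site-1 protease, on chromosome 8 from 119508151 to 119558864, had 44.2, 49.5 and 51.1 CPM in LT against 52.1, 52.2 and 48.1 CPM in the *Fpn*-LKO-labelled libraries. Its log2 fold change was 0.07 (SE 0.10, 95% interval -0.17 to 0.32; adjusted p = 0.995 in the edgeR fit), which was the narrowest interval among the members. In the deposited TPM, *Mbtps1* was at 14.8, 14.6 and 13.9 in LT and 15.2, 18.6 and 15.1 in the *Fpn*-LKO-labelled libraries, so that the groups overlapped in CPM but not in TPM. *Mbtps2*, the site-2 protease, on chromosome X from 157547822 to 157598715, had 266, 219 and 200 reads in LT against 338, 427 and 350 reads in the *Fpn*-LKO-labelled libraries. These were 5.34, 5.06 and 4.83 CPM in LT against 7.09, 9.15 and 7.54 CPM in the *Fpn*-LKO-labelled libraries. All 3 *Fpn*-LKO-labelled libraries were above LT, with means of 7.92 ± 1.08 and 5.08 ± 0.255 CPM (SD, n = 3 each), a 1.56-fold difference. The log2 fold change was 0.64 (SE 0.17, 95% interval 0.25 to 1.03; adjusted p = 0.834 in the edgeR fit), and the unadjusted p from edgeR was 0.0058. The adjusted p was 0.386 with exactTest and 0.164 with DESeq2. In TPM, *Mbtps2* over *Mbtps1* was 0.106, 0.0902 and 0.0831 in LT and 0.120, 0.153 and 0.138 in the *Fpn*-LKO-labelled libraries, which did not overlap.

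The *Mbtps2* value carries an annotation limit. All 2867 exon bases of *Yy2*, a gene for a zinc finger protein on the same strand, fall within exons annotated to *Mbtps2*, so reads there could be given to either gene. *Yy2* had 2.31, 1.66 and 1.93 CPM in LT against 1.82, 1.09 and 1.34 CPM in the *Fpn*-LKO-labelled libraries, a difference opposite in sign to that of *Mbtps2*. With the reads of both genes summed, a setting chosen after the data were seen, the values were 7.65, 6.72 and 6.77 CPM in LT against 8.91, 10.2 and 8.88 CPM in the *Fpn*-LKO-labelled libraries. The sum also did not overlap between the groups, with a smaller log2 fold change of 0.41 (SE 0.15, adjusted p = 0.982 in the edgeR fit). The study itself displayed *Mbtps2* from these libraries, so its direction here is not independent evidence.

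**Figure D3:**
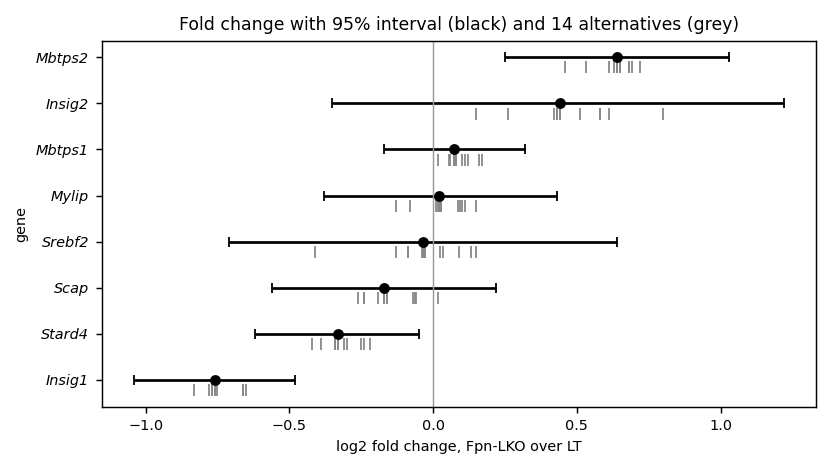
log2 fold change of each gene, Fpn-LKO-labelled libraries over LT, from edgeR (black point, with its 95% interval), and the values in 14 alternative settings (grey ticks). The intervals of *Insig1*, *Stard4* and *Mbtps2* exclude 0, and the ticks of *Srebf2*, *Mylip* and *Scap* lie on both sides of 0.

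*Stard4* encodes a soluble carrier that moves cholesterol between membranes and lies on chromosome 18 from 33199138 to 33213862. It had 44.9, 39.5 and 44.5 CPM in LT against 30.1, 34.1 and 38.0 CPM in the *Fpn*-LKO-labelled libraries. The groups did not overlap, with the highest *Fpn*-LKO-labelled library just below LT replicate 2. The mean was 0.793 times that of LT (log2 fold change -0.33, SE 0.12, adjusted p = 0.982 in the edgeR fit). In the deposited TPM the groups overlapped. The unadjusted p from edgeR was 0.0279 and was under 0.05 in 7 of the 14 alternative settings, with log2 fold changes between -0.42 and -0.22, and the 4 libraries whose removal took it over 0.05 were replicates 1 and 3 of LT and replicates 1 and 2 of *Fpn*-LKO.

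*Mylip*, on chromosome 13 from 45389742 to 45411940, had 19.0, 15.9 and 13.8 CPM in LT against 19.7, 14.9 and 14.8 CPM in the *Fpn*-LKO-labelled libraries. The replicates of each group spanned nearly the same range. The log2 fold change was 0.02 (SE 0.17, 95% interval -0.38 to 0.43; adjusted p = 0.995 in the edgeR fit), and it lay between -0.13 and 0.15 when either replicate 1 was left out. Of the 8 members, 3 did not overlap between the groups, beside 10.6% of all genes tested. The 2 that lay below LT compare with 5.34% of all genes, and the 1 above with 5.25%.

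The enzymes of cholesterol synthesis are the best known targets of the pathway, and 18 of 20 had a negative log2 fold change, with a median of -0.43. Without adjustment, 10 were lower at p under 0.05 in the edgeR fit and 0 were higher, against 2.19% of all genes tested that were lower. None passed the adjustment in that test, and 3 were lower after adjustment with both exactTest and DESeq2. *Idi1*, isopentenyl diphosphate isomerase, had 30.8, 45.4 and 35.1 CPM in LT against 10.1, 15.7 and 17.7 CPM in the *Fpn*-LKO-labelled libraries (log2 fold change -1.35). *Sqle*, squalene epoxidase, had 12.3, 20.2 and 12.5 CPM in LT against 5.03, 5.80 and 8.0 CPM in the *Fpn*-LKO-labelled libraries (log2 fold change -1.25). *Msmo1*, a sterol demethylation enzyme, had a log2 fold change of -1.05 and *Fdft1*, squalene synthase, one of -0.53. These 4 had the smallest p of the list. Over the whole list, 10 of 20 enzymes were lower without overlap between the groups, beside 5.34% of all genes tested.

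**Figure D4:**
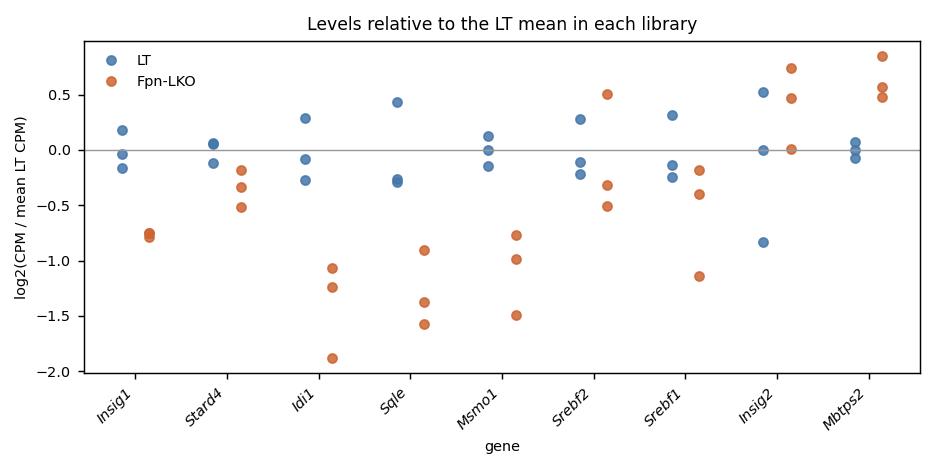
log2 of CPM over the mean LT CPM of each gene, with 1 point per library (LT blue, Fpn-LKO-labelled libraries orange). *Insig1* and *Stard4* lie below LT without overlap, as do *Idi1*, *Sqle* and *Msmo1*, whereas *Srebf2*, *Srebf1* and *Insig2* overlap and *Mbtps2* is higher.

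Among 15 partners of SCAP and INSIG, which include the ubiquitin ligases that degrade INSIG-1, *Erlin1* alone had an unadjusted p under 0.05 in edgeR, and 1 of 15 is near the 4.80% of all genes tested. *Erlin1* encodes an endoplasmic reticulum protein reported to bind the SREBP-SCAP-INSIG complex. It had 36.0, 28.5 and 36.0 CPM in LT against 47.2, 42.0 and 54.2 CPM in the *Fpn*-LKO-labelled libraries, without overlap (log2 fold change 0.51, SE 0.14, adjusted p = 0.922 in the edgeR fit). *Ube2g2*, a ubiquitin-conjugating enzyme, had a log2 fold change of 0.33 and *Aup1*, a lipid droplet protein of the degradation machinery, one of -0.21, and neither had an unadjusted p under 0.05. The median of the list was 0.01.

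None of the 12 genes of the COPII coat had an unadjusted p under 0.05 in edgeR, and their log2 fold changes lay between -0.21 (*Sec16a*) and 0.11. Of the 9 other substrates of the 2 proteases, 7 were tested and 0 had such a p, with *Srebf1* at -0.52, *Atf6b* at 0.39, *Creb3l2* at -0.34 and *Atf6* at -0.11 on the log2 scale. The 12 sterol transfer proteins other than STARD4 also had 0 at that threshold, including *Osbpl9* at 0.23, *Stard5* at -0.25 and *Npc1* at -0.21. None of the genes in these 3 lists passed adjustment with the edgeR fit, exactTest or DESeq2.

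Since *Mylip* is an LXR target, the receptors and 7 further targets were examined. *Nr1h3*, the liver's main LXR, had 76.2, 72.7 and 69.8 CPM in LT against 85.1, 85.9 and 86.7 CPM in the *Fpn*-LKO-labelled libraries, without overlap (log2 fold change 0.24, SE 0.10, adjusted p = 0.982 in the edgeR fit). In the deposited TPM its groups overlapped, and its unadjusted p with exactTest was 0.127. *Nr1h3* was 1 of the 9 with an unadjusted p under 0.05 in edgeR, beside 4.80% of all genes tested. It was also 1 of the 9 without overlap in CPM, beside 10.6%. *Abca1*, a cholesterol exporter, had a log2 fold change of 0.13 and *Abcg1* one of 0.26, and the list's median was 0.10. Over 7 lists of the pathway, 1 of which is not described here, 13 of 85 tested genes (15.3%) had an unadjusted p under 0.05 in edgeR, beside 4.80% of all genes. Of these 13, 11 were lower, beside 2.19% of all genes, and 2 were higher, beside 2.62%, and 10 of the 11 were enzymes of cholesterol synthesis. The lists were chosen with earlier results of these data known, so their shares are a description as well.

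**Figure D5:**
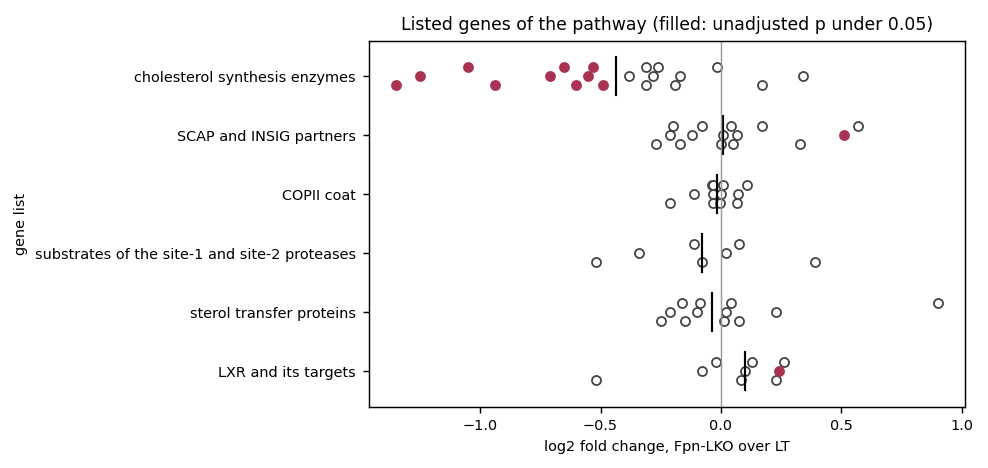
log2 fold change of each tested gene in 6 pathway lists, Fpn-LKO-labelled libraries over LT (filled, unadjusted p under 0.05 in edgeR; vertical bar, median of the list). Of the 20 cholesterol synthesis enzymes 10 are filled and lower, whereas the other lists hold 1 or 0 filled points each.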

How the data were processed

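Total RNA from the liver of 3 LT and 3 *Fpn*-LKO male mice on the HFD was sequenced, and the labels place all 6 in 1 batch. The labels name a stranded mRNA kit, whereas the methods describe a kit for total RNA. Per the labels, the submitters' processing notes list bcl2fastq 2.20.0, FastQC 0.11.7, HISAT2 2.1.0, Bowtie2 2.3.4.1, StringTie 2.1.3b and the build mm10. The authors deposited read counts per gene from StringTie without normalization. The authors also deposited FPKM, scaled to length and library size, which was not used, and TPM, in which Rn7s1 or Rn7s2 took between 66810 and 185600 per library, so the TPM of other genes moves with them.

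The deposited counts entered a quasi-likelihood test (edgeR 4.0.16, R 4.3.3) after TMM scaling, over all 17274 genes with 0 reads in at most 1 library, with Benjamini-Hochberg adjustment. CPM was computed from the counts with TMM-scaled library sizes. Alternatives were RLE size factors, DESeq2 1.42.0, exactTest (the study's test), filterByExpr or no filter beyond 1 read, a block for the replicate number, limma 3.58.1 on log2(TPM + 1) and log2(TPM + 0.1), and leaving out each library in turn. The procedure was tested on simulated data. The common biological coefficient of variation was 0.275.

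The members, the gene lists and the tests were chosen with earlier results of these data known. The rule named all members, *Slc40a1*, *Srebf1*, some further targets, up to 4 genes per list by the smallest unadjusted p, and the 3 genes most like *Insig1* and each member at an unadjusted p under 0.05. *Mir33* and *Yy2* were named after their values were seen. Some genes that the rule named, and 1 list, are not reported here. Upstream sequences are from RefSeq (GRCm38.p6), exons from GENCODE M21, and near-identical transcripts were sought with BLAST 2.17.0. Apart from *Yy2* and 5830462I19Rik, the closest was Gm37784, which shared 189 bases with *Insig1* at 98.9% identity.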

Additional observations from a re-analysis of the deposited data

How the results depend on the processing

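The number of members past the adjusted threshold was 0 in edgeR's quasi-likelihood test and 1 with DESeq2 and with exactTest, *Insig1* in both. Of the pathway genes in the lists, 0 passed in the quasi-likelihood test and 4 passed with DESeq2 and 4 with exactTest, with *Idi1*, *Msmo1* and *Sqle* among them in both. The cause was not tested. Over all genes these tests called 4, 72 and 63 genes, in that order. When 1 library was left out, between 2 and 4 members had an unadjusted p under 0.05, with *Insig1* and *Mbtps2* among them each time. *Stard4* lost that threshold without LT replicate 1 (p = 0.0795 in edgeR), LT replicate 3 (0.067), *Fpn*-LKO replicate 1 (0.091) or *Fpn*-LKO replicate 2 (0.0677), with exactTest (0.053) and in limma on log2(TPM + 1) (0.246) and log2(TPM + 0.1) (0.261). *Insig2* passed it without LT replicate 2 (0.0421). No direction of *Insig1*, *Mbtps2* or *Stard4* changed in the 14 settings. On the TPM scale, limma was run on the 11464 genes with a mean of at least 1 TPM. Their median log2 fold change was 0.083 with a pseudocount of 1 and 0.10 with 0.1.

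With the replicate number as a block, 3 members and 13 listed pathway genes had an unadjusted p under 0.05, as without it, 0 members and 0 listed pathway genes passed adjustment, and 0 genes passed over all genes in place of 4 (850 had an unadjusted p under 0.05). Same-numbered libraries correlated at 0.261, 0.0382 and 0.143 in their deviations from the group means. Libraries of unlike number correlated at between -0.207 and 0.0859. These values do not settle whether the numbers pair the mice, and the edgeR fit did not use the numbers.

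The limits are the 3 libraries per group, the *Slc40a1* count that was not lower, and, for *Mbtps2* and *Srebf2*, low counts of 200 to 518 reads per library.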

Other observations

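Further lists describe the feeding state and the time of day of the livers. Among 13 genes that follow feeding and insulin, 2 had an unadjusted p under 0.05 in edgeR and both were lower, beside 2.19% of all genes tested. *Fasn*, fatty acid synthase, had 88.8, 176.6 and 79.8 CPM in LT against 47.2, 72.2 and 58.2 CPM in the *Fpn*-LKO-labelled libraries, and *Acly*, ATP citrate lyase, had 87.0, 134.8 and 88.3 CPM in LT against 73.0, 81.8 and 58.7 CPM in the *Fpn*-LKO-labelled libraries. Among 16 clock genes tested, 3 had such a p and were lower, beside 2.19% of all genes tested. They were *Per3* (log2 fold change -0.53), *Bhlhe40* (-0.45) and *Tef* (-0.33). Of the 16, 7 had a positive log2 fold change, of up to 0.47. *Per3* had an adjusted p of 0.570 in edgeR and 0.0403 with DESeq2. Whether the time of collection or the feeding state contributed to the lower *Insig1* was not tested.

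The genes whose level over the 6 libraries was most like that of *Insig1*, among 8997 genes with a mean of at least 5 CPM, were *Epb41l5* (Pearson r = 0.989), *Gm36375* (0.987) and *Upf3b* (0.984). For *Mbtps2* they were *Dennd2d* (0.998), *Kifap3* (0.983) and *Bloc1s6* (0.979), and for *Stard4* they were *Enpp1* (0.990), *Hnrnpdl* (0.986) and *Arhgap21* (0.984). With 6 libraries in 2 groups, such values are a description.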
